A study of Mus musculus with 23 samples.

Results

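FGF-ERK signalling was followed here through 10 genes: the ligand Fgf4, the receptors Fgfr1 and Fgfr2, the feedback inhibitors Spry1, Spry2, Spry4, Spred1 and Dusp6, and the ETS transcription factors Etv4 and Etv5. They were chosen by name for their place in the pathway, with earlier results of these data known. All 10 were found among the 23369 gene names of the RNA-seq tables, with 1 row each. FGF4 made by mouse embryonic stem cells (ESCs) binds FGF receptors on the same or neighbouring cells and activates ERK through RAS, RAF and MEK. In ESCs this signal is known for moving cells out of self-renewal and, in the early embryo, towards primitive endoderm. Active ERK induces Sprouty, SPRED and DUSP genes, whose products dampen the pathway, and it induces the ETS factors Etv4 and Etv5, so that the RNA of these genes is widely used as a readout of the signal.

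The RNA came from one mouse ESC line, Kdm2b fl/fl, in which loxP sites flank an exon for the ZF-CxxC domain of KDM2B, a domain that binds non-methylated CpG dinucleotides. All cells stably carry a Cre recombinase that 4-hydroxytamoxifen switches on, and all were grown in serum and LIF on inactivated embryonic fibroblasts and left overnight off these feeders. The 3 samples labelled untreated received no drug and the 3 labelled tamoxifen received 4-hydroxytamoxifen for 72 hr, at 800 nM in the sample labels and 800 µM in the series text. No RNA sample had the drug without the floxed alleles, so that loss of the domain, Cre activity and the drug itself cannot be told apart in the comparison of both groups.

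Groups were taken from the sample labels, while the names of the deposited files assign the same samples the other way round. Under that assignment every change given here would take the opposite sign, with its size and its p-value as before. Kdm2b could not settle this, because a value for the whole gene does not separate the floxed exon: it read 27.0, 21.5 and 27.7 FPKM in untreated replicates 1 to 3 and 19.9, 21.9 and 25.0 FPKM in tamoxifen replicates 1 to 3. FPKM are fragments scaled to the length of the transcript and the size of the library, and can be set side by side between genes. ESC markers were well detected in every sample, with a sum over 10 genes of between 2970 and 5700 FPKM. Samples with the same replicate number resembled each other across groups, the correlation of their deviations from the group means being 0.54, 0.61 and 0.51 for numbers 1, 2 and 3 over 12997 genes.

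The study deleted a domain that reads CpG-dense DNA. Most of these genes with a promoter entry held more CpG before the start than the median promoter. In the 250 bases before the annotated start, in RefSeq on GRCm38.p6, 7 of the 10 genes had an entry (Fgf4, Fgfr2, Spry1, Spry2, Spred1, Dusp6 and Etv5), which left Fgfr1, Spry4 and Etv4. The letters CG, which read the same on both strands, were counted as a description of sequence only, since occupancy was not analysed here. Of 32851 promoters in the table, 92.1% held at least 1 CG and the median was 6. Spred1 held 31 CG, a number reached by 5.19% of all promoters. Etv5 held 27 and 18 at its 2 annotated starts (reached by 8.56% and 21.7%), and Spry1 and Spry2 23 each (13.3%). Fgf4 held 21 (16.3%) and Dusp6 16 (25.4%). Fgfr2 stood apart with 2, a number reached by 81.2% of all promoters. Shown here, 5′ to 3′ with each CG in capitals, are Spred1 (chr2:117120821-117121070, plus strand) and Dusp6 (chr10:99262981-99263230, plus strand), which were lower in tamoxifen, Spry1 (chr3:37639697-37639946, plus strand), whose values lay the other way, and the CG-poor Fgfr2 (chr7:130266809-130267058, minus strand).
Spred1: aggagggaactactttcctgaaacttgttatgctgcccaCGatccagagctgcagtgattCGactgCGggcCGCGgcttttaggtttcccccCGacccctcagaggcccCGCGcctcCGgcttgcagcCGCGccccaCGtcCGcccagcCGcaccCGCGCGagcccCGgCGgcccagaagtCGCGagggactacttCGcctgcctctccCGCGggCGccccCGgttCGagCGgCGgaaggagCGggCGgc
Dusp6: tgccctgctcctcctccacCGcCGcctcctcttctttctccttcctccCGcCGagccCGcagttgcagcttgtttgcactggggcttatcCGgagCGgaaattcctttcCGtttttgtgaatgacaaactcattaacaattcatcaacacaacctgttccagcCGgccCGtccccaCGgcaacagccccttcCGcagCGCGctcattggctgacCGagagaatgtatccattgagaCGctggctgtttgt
Spry1: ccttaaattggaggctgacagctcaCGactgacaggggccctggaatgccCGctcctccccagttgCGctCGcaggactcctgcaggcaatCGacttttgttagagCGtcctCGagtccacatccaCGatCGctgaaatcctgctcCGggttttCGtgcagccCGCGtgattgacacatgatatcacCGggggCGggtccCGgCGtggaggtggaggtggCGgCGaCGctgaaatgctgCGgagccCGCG
Fgfr2: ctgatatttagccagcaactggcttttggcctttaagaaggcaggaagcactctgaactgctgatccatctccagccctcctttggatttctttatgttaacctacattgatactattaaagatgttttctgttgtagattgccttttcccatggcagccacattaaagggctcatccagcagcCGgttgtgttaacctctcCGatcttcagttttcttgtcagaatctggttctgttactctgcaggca

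Among the 10 genes, Spry4, Etv4, Spred1 and Dusp6 were lower in tamoxifen in each of the 3 replicate numbers, by 2.15-, 1.78-, 1.61- and 1.38-fold. These 4 passed the test only once a term for the replicate number, called the block here, was added to the fit, and 0 of 10 passed it in the higher direction. Spry2 and Fgfr1 also lay lower in every number without passing, Spry1 was the one gene higher in every number, and Fgf4, Fgfr2 and Etv5 moved in different directions in different numbers. The test was limma on log2(FPKM + 0.1), with an adjusted p under 0.05 over all 12997 genes tested as the threshold. Without the block, limma called 0 of the 10 genes at this threshold, against 4 of all genes (0.0308%). At an unadjusted p under 0.05 it had 2 of the 10, Etv4 and Spry4, against 4.79% of all genes (623). With the block it called 4 of 10 lower, against 6.06% of all genes (787), and 0 of 10 higher, against 4.33% (563). At an unadjusted p under 0.05 with the block there were 7 of the 10, against 29.8% of all genes (3873). With TPM scaling and the block these totals became 336 lower and 430 higher, and 2 of the 10 genes were called. The median log2 fold change was -0.35 over the 10 genes and -0.02 over all genes tested. Since the 10 genes were chosen with earlier results known, these comparisons with all genes describe the set and do not test it.

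The groups did not overlap, with tamoxifen lower, for 2 of the 10 genes, against 5.4% of all genes, and no gene of the 10 lay wholly higher, against 3.09% of all genes. Of the 10 genes, 6 were lower in every replicate number, against 28.2% of all genes, and 1 was higher in every number, against 24.8%. In the plot of FPKM by sample, lines join samples of the same replicate number.

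**Figure D1:**
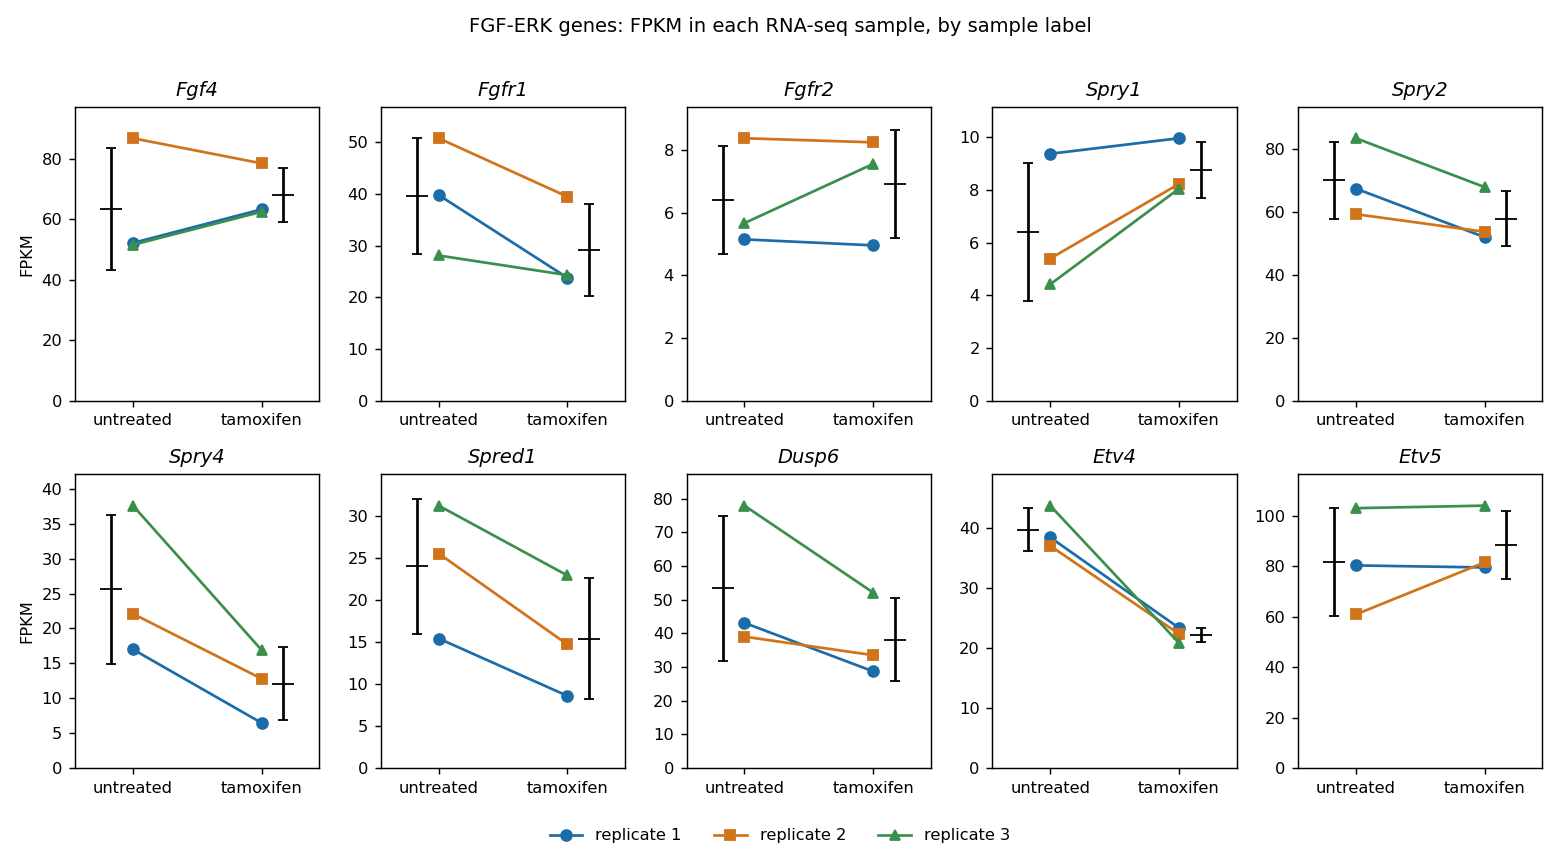
FPKM of each of the 10 genes in the 3 untreated and 3 tamoxifen samples, named by their labels. Points and lines of one colour are one replicate number and the black bars are mean ± SD. Etv4 falls from between 37.1 and 43.8 to between 20.9 and 23.4, while the lines of Spry4, Spred1 and Dusp6 run downwards from different heights.

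The ligand and its receptors come first. Fgf4 (mm9 chr7:152047291-152051148, plus strand), the FGF that ESCs themselves secrete, read 52.1, 86.7 and 51.5 FPKM in untreated replicates 1 to 3 and 63.2, 78.4 and 62.4 FPKM in tamoxifen replicates 1 to 3. Replicate 2 was highest in both groups, and the groups overlapped. The means were 63.4 ± 20.2 and 68.0 ± 8.98 FPKM (SD, n = 3 each), and the log2 fold change was 0.14 with a 95% interval of -0.13 to 0.4 with the block (limma adjusted p = 0.44).

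Fgfr1 (mm9 chr8:26629244-26686186, plus strand), the main FGF receptor of ESCs, read 39.8, 50.8 and 28.1 FPKM in untreated and 23.8, 39.5 and 24.3 FPKM in tamoxifen. Each tamoxifen sample lay under the untreated sample of its number, by 0.74, 0.36 and 0.21 on the log2 scale for replicates 1, 2 and 3 in size, while the groups overlapped. The log2 fold change was -0.44 with a limma adjusted p of 0.059 with the block and 0.999 without. With the block Fgfr1 passed when replicate 3 was left out (limma adjusted p = 0.0431) and with a pseudocount of 1 (0.0462). It did not pass without replicate 1 (0.0968), without replicate 2 (0.192) or with TPM scaling (0.404), and passed in 2 of 7 settings with the block. Fgfr2 (mm9 chr7:137305965-137410322, minus strand), the receptor associated with primitive endoderm, was far lower in both groups, with 5.15, 8.38 and 5.67 FPKM in untreated and 4.96, 8.25 and 7.56 FPKM in tamoxifen. Its groups overlapped, and the log2 fold change of 0.11 (95% interval with the block -0.2 to 0.42, limma adjusted p = 0.61) took the opposite sign when untreated replicate 1 was left out (-0.03).

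Sprouty proteins inhibit the pathway between receptor and RAF, and of the 3 measured here Spry4 alone passed the test with the block. Spry4 read 17.0, 22.1 and 37.6 FPKM in untreated replicates 1 to 3 and 6.46, 12.8 and 16.9 FPKM in tamoxifen replicates 1 to 3. The groups did not overlap, but only by the gap between 17.0 in untreated replicate 1 and 16.9 in tamoxifen replicate 3. Replicate 3 was highest and replicate 1 lowest in both groups, so that samples of 1 number differed clearly while those of different numbers nearly met. Within numbers the log2 difference was -1.39, -0.79 and -1.15. The fitted log2 fold change was -1.11 (SE 0.41 without the block, SE 0.13 with it), for which limma gave an adjusted p of 0.829 and, with the block, of 0.0046.

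Spry2 (mm9 chr14:106291164-106296036, minus strand), the most abundant Sprouty here, read 67.3, 59.2 and 83.3 FPKM in untreated and 51.9, 53.6 and 67.8 FPKM in tamoxifen. All 3 numbers were lower in tamoxifen, but the groups overlapped and the log2 fold change of -0.27 did not pass (limma adjusted p = 0.11 with the block). Spry1 (mm9 chr3:37538872-37543521, plus strand) read 9.38, 5.4 and 4.42 FPKM in untreated and 9.97, 8.23 and 8.05 FPKM in tamoxifen. It ran against Spry2 and Spry4 in its replicate order as well, with replicate 1 highest and replicate 3 lowest in both groups. Its log2 differences were 0.09, 0.6 and 0.85 in numbers 1 to 3 and the fitted value was 0.51, with a limma adjusted p of 0.079 with the block. Leaving out replicate 1, the number with the smallest difference, took Spry1 past the threshold with the block (log2 fold change 0.73, limma adjusted p = 0.00178). That fit rests on fewer samples and called 785 of 12634 genes higher. Spry1 did not pass without replicate 2 (0.287) or without replicate 3 (0.273), and passed in 1 of 7 settings with the block.

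Spred1 (mm9 chr2:116946807-117008013, plus strand), which brings neurofibromin to the membrane to switch RAS off, read 15.4, 25.5 and 31.2 FPKM in untreated replicates 1 to 3 and 8.58, 14.7 and 22.9 FPKM in tamoxifen replicates 1 to 3. Both groups were ordered alike, replicate 1 lowest and replicate 3 highest, and tamoxifen replicate 3 lay above untreated replicate 1. The log2 fold change was -0.69 (SE 0.39 without the block, SE 0.11 with it), and the limma adjusted p was 0.999 without the block and 0.014 with it. The call was lost with TPM scaling (limma adjusted p = 0.0793 with the block) and without replicate 2 (0.1).

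Dusp6 (mm9 chr10:98725865-98730123, plus strand), the phosphatase that removes the activating phosphates from ERK in the cytoplasm, read 43.1, 39.0 and 77.9 FPKM in untreated and 28.7, 33.5 and 52.1 FPKM in tamoxifen. Replicate 3 was the highest of either group, and tamoxifen replicate 3 exceeded untreated replicates 1 and 2. The log2 fold change was -0.46, with a limma adjusted p of 0.037 with the block and 0.999 without. Of the 4 calls this was the least firm, since it was lost with TPM scaling (limma adjusted p = 0.339 with the block), without replicate 2 (0.0791) and without replicate 3 (0.122).

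Etv4 and Etv5 are closely related ETS factors of the PEA3 group, and both are usual transcriptional targets of FGF-ERK signalling. Etv4 (mm9 chr11:101631056-101646624, minus strand) read 38.5, 37.1 and 43.8 FPKM in untreated replicates 1 to 3 and 23.4, 22.4 and 20.9 FPKM in tamoxifen replicates 1 to 3. The groups were well separated, and Etv4 varied less among replicates than any of the other 9 genes, with means of 39.8 ± 3.56 and 22.2 ± 1.22 FPKM (SD, n = 3 each). Its log2 fold change of -0.83 had a 95% interval of -1.27 to -0.39 without the block. The limma adjusted p was 0.4 without the block, where the unadjusted p was 0.0022, and 0.0062 with it. Etv5 (mm9 chr16:22381386-22439643, minus strand), the most abundant of the 10 genes in both groups, read 80.3, 60.9 and 103 FPKM in untreated and 79.5, 81.5 and 104 FPKM in tamoxifen. Replicates 1 and 3 were nearly the same in both groups and replicate 2 was higher in tamoxifen. Its log2 fold change was 0.14, with a 95% interval with the block of -0.12 to 0.4 (limma adjusted p = 0.44), and it was -0.06 when untreated replicate 2 was left out.

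Replicate numbers set apart some of the 10 genes much more than others. In untreated samples the highest value was 2.21 times the lowest for Spry4, 2.12 times for Spry1, 2.03 times for Spred1 and 2.0 times for Dusp6, against 1.18 times for Etv4. Replicate 3 was highest in both groups for Spry2, Spry4, Spred1, Dusp6 and Etv5, and replicate 2 was highest in both for Fgf4, Fgfr1 and Fgfr2. The labels do not say what a replicate number stands for beyond the number itself. Across the 22 other settings tried, Spry4 and Etv4 kept their direction, and they passed in all 7 settings with the block. The limma adjusted p was between 9.75e-05 and 0.0265 for Spry4 and between 0.00015 and 0.0474 for Etv4. Both ends of each range came from fits that left out 1 replicate number and so rest on fewer samples. The lowest values came without replicate 1, where 785 of all genes were called higher and 1078 lower, against 563 and 787 with all numbers.

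**Figure D2:**
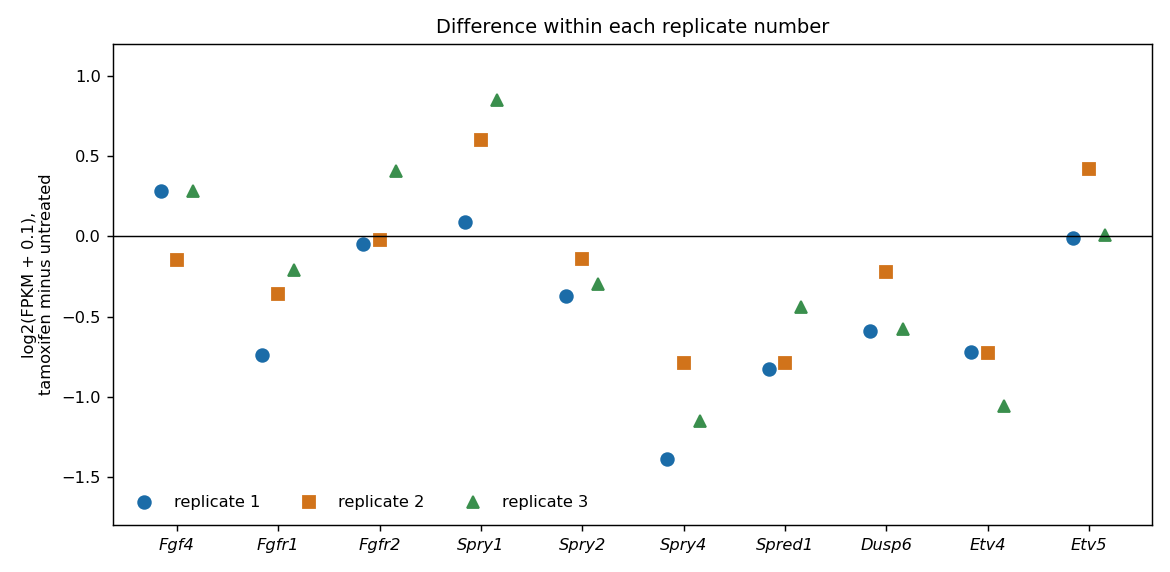
Difference in log2(FPKM + 0.1) between the tamoxifen and the untreated sample of the same replicate number, by gene. Spry4, Spred1, Dusp6, Etv4, Fgfr1 and Spry2 have all 3 points under 0, Spry1 has all 3 above it, and Fgf4, Fgfr2 and Etv5 have points on both sides.

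**Figure D3:**
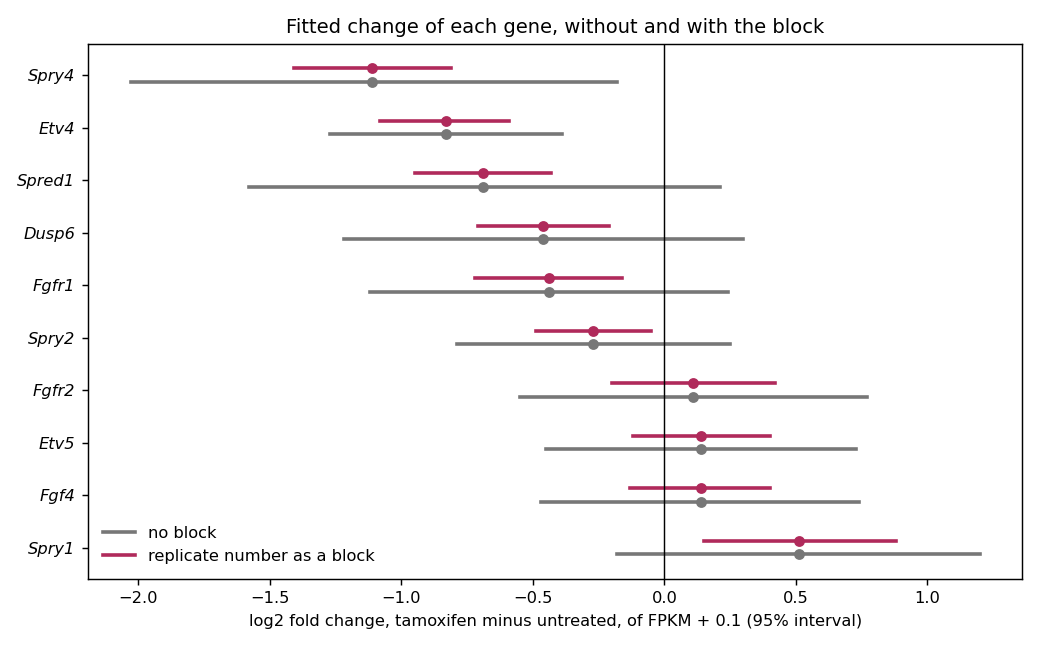
Fitted log2 fold change of each gene with its 95% interval, from limma without the block in grey and with it in red. The points coincide, and the intervals with the block are narrower for all 10 genes, for example -1.41 to -0.81 against -2.03 to -0.18 for Spry4.

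By mean FPKM in untreated samples the order was Etv5, Spry2, Fgf4, Dusp6, Etv4, Fgfr1, Spry4, Spred1, Fgfr2 and Spry1. Neighbours in this order had overlapping ranges in untreated samples with the exception of Spred1 and Fgfr2, so that most single ranks are not settled by 3 samples. In tamoxifen Etv5 stayed first by mean, its 3 samples all above the 3 of Spry2, and Dusp6 lay wholly above Etv4. Etv4 lay wholly under Fgfr1 in tamoxifen, but only by the gap between 23.4 and 23.8 FPKM, both in replicate 1. In untreated samples both ranges overlapped.

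The rest of the pathway was read from lists of 77 other genes, of which 63 reached the level needed for testing. Without the block limma called 0 of the 63, and 3 had an unadjusted p under 0.05, against 4.79% of all genes. With it 24 had an unadjusted p under 0.05, against 29.8% of all genes, and 2 were called higher and 7 lower, to be read against 4.33% and 6.06% of all genes, and the median log2 fold change was -0.18. The count fell to 1 without replicate 2. Of the 63, 31 were lower in every replicate number, against 28.2% of all genes, and 6 were higher in every number, against 24.8%. In the plot of the pathway by list, each list's median lies at or under 0.

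**Figure D4:**
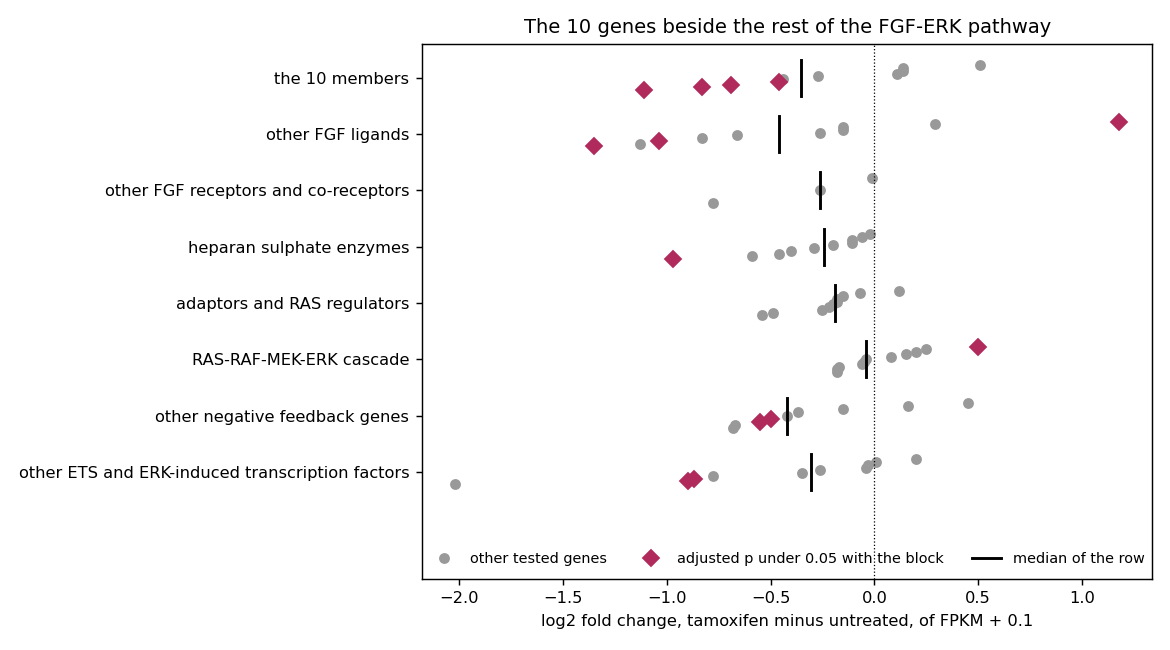
Log2 fold change (tamoxifen minus untreated, of FPKM + 0.1) of the tested genes by list, with diamonds for limma adjusted p under 0.05 with the block and a bar at each list's median. The medians run from -0.46 for other FGF ligands to -0.04 for the RAS-RAF-MEK-ERK cascade. The point near -2 is Fosl1, listed at 0 in 3 of the 6 samples, which did not pass.

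Of 21 other FGF ligands 10 were tested. With the block limma called 1 higher and 2 lower, against 4.33% and 6.06% of all genes. At an unadjusted p under 0.05 with the block there were 5 of the 10, against 29.8% of all genes. Fgf8, a ligand of gastrulation, rose from 2.17, 1.14 and 0.521 FPKM to 3.35, 2.89 and 1.84 FPKM (limma adjusted p = 0.02 with the block). Fgf18 fell from 0.773, 2.0 and 2.39 FPKM to 0.557, 0.693 and 0.425 FPKM (limma adjusted p = 0.044 with the block). Fgf7, a ligand made by mesenchyme, fell from 0.418, 1.5 and 2.3 FPKM to 0.0943, 0.63 and 1.53 FPKM (limma adjusted p = 0.039 with the block). These 3 genes were under 4 FPKM in every sample. Without replicate 2, Fgf8 (limma adjusted p = 0.141) and Fgf18 (0.21) were no longer called and Fgf7 had too low a level to be tested. Fgf18 also missed the threshold without replicate 3 (0.0908), and Fgf18 and Fgf7 missed it after quantile normalization (0.0979 and 0.0956). Fgf7 was also lost with TPM scaling (limma adjusted p = 0.067 with the block), and passed in 3 of the 5 settings with the block in which it was tested. Among 5 other receptors and co-receptors 3 were tested and none passed (1 at an unadjusted p under 0.05 with the block, against 29.8% of all genes), with a log2 fold change of -0.78 for Fgfr4 (limma adjusted p = 0.058 with the block) and -0.26 for Fgfrl1 (0.19).

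Heparan sulphate chains hold FGF on its receptor. Of the 10 genes for their synthesis or trimming 1 passed, in the lower direction, against 6.06% of all genes. At an unadjusted p under 0.05 in limma with the block there were 5 of 10, against 29.8% of all genes. Hs6st2, a 6-O-sulphotransferase, read 4.5, 10.2 and 9.82 FPKM in untreated and 2.2, 4.54 and 5.72 FPKM in tamoxifen, with a log2 fold change of -0.97. With the block limma gave it an adjusted p of 0.0067, and of 0.0722 when replicate 2 was left out. Between receptor and ERK little passed. Of the 10 adaptors and RAS regulators none did (2 at an unadjusted p under 0.05 with the block, against 29.8% of all genes), the largest differences being -0.54 for Sos2 (limma adjusted p = 0.094 with the block) and -0.49 for Frs2 (0.1). Of the 11 genes of the RAS-RAF-MEK-ERK cascade 1 did, in the higher direction, against 4.33% of all genes. At an unadjusted p under 0.05 in limma with the block there was 1 of 11, against 29.8% of all genes. Mapk3, the gene of ERK1, rose from 47.7, 26.0 and 27.8 FPKM to 62.6, 40.5 and 38.4 FPKM (limma adjusted p = 0.021 with the block and 0.143 when replicate 2 was left out). Its groups overlapped, though every tamoxifen sample exceeded the untreated sample of its number.

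Downstream, 2 of the 9 other negative feedback genes tested were called lower with the block, against 6.06% of all genes. At an unadjusted p under 0.05 in limma with the block there were 6 of 9, against 29.8% of all genes. Dusp5, a nuclear ERK phosphatase, read 11.6, 10.4 and 15.3 FPKM in untreated and 7.41, 8.92 and 9.76 FPKM in tamoxifen, without overlap (log2 fold change -0.5, limma adjusted p = 0.045 with the block). Spred3, of the same family as Spred1, went from 2.64, 5.21 and 5.5 FPKM to 1.62, 4.15 and 3.49 FPKM (limma adjusted p = 0.048 with the block). Both calls were near the threshold and were lost with TPM scaling, with quantile normalization, and without replicate 2 or 3.

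Of the 10 other ETS or ERK-induced transcription factors 2 were called lower with the block, against 6.06% of all genes. At an unadjusted p under 0.05 in limma with the block there were 4 of 10, against 29.8% of all genes. Myc read 11.4, 16.1 and 29.6 FPKM in untreated and 5.62, 9.04 and 17.3 FPKM in tamoxifen, with the same order of replicates as Spry4 and Spred1, and its log2 fold change was -0.87 (limma adjusted p = 0.0049 with the block). It passed in all 7 settings with the block. Egr1, an immediate early gene, read 92.7, 63.1 and 12.6 FPKM in untreated and 32.6, 35.0 and 10.0 FPKM in tamoxifen, so that its replicates differed more than its groups (log2 fold change -0.9, limma adjusted p = 0.031 with the block and 0.141 when replicate 2 was left out).

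Markers of other cells were measured beside these genes, since in bulk RNA fewer cells of a type and less RNA per cell cannot be told apart. The 10 fibroblast markers summed to 167, 368 and 371 FPKM in untreated replicates 1 to 3 and to 181, 338 and 322 FPKM in tamoxifen replicates 1 to 3, and limma called 0 of them in either fit (1 at an unadjusted p under 0.05 with the block, against 29.8% of all genes). Their sum was lowest in replicate 1 of both groups, and its values overlapped between untreated and tamoxifen. Of the 10 genes, Fgfr2, Spry4 and Spred1 were also lowest in replicate 1 of both groups. The part of fibroblasts in the values of these genes was not tested. Primitive endoderm markers were low, and their sum over 8 genes was lower in tamoxifen in every number, at 11.1, 15.9 and 15.3 FPKM in untreated and 7.07, 11.4 and 12.6 FPKM in tamoxifen. Of the 5 of these tested, Gata6 (-1.43, limma adjusted p = 0.017), Gata4 (-0.85, 0.036) and Lama1 (-0.66, 0.024) were lower in log2 fold change with the block, against 6.06% of all genes called lower. The other tested ones did not pass, Pdgfra at -0.44 (limma adjusted p = 0.18 with the block) and Dab2 at 0.23 (0.3), Dab2 being higher in tamoxifen in every number, while Sox17, Sox7 and Cubn were under 0.5 FPKM in every sample. Of the settings with the block, Gata6 passed in all 4 in which it was tested, Lama1 in 5 of 7 and Gata4 in 3 of 7. The part of such cells in the values of Spry4, Etv4, Spred1 and Dusp6 was not tested. None of the 6 primed and formative markers and none of the 10 ESC markers passed (0 and 3 at an unadjusted p under 0.05 in limma with the block, against 29.8% of all genes). Of the 10 ESC markers 5 were higher in tamoxifen in every number, against 24.8% of all genes, and 0 were lower in every number, against 28.2%.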

How the data were processed

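RNA-seq was measured in 6 samples, 3 per group, described as biological triplicates. P-values without the block measure the spread between these samples, and those with the block the spread of the differences within replicate numbers. The study's 17 ChIP and input samples were not analysed here. The authors deposited FPKM per gene, and their methods give directional poly(A)+ libraries, TopHat2 (0.5) alignment to mm9 and Cuffdiff (2.1.1) on refGene models. FPKM keep no read totals, so that no counting interval is given. Single-fragment steps in 457 to 550 low genes, 30.9% to 32.8% of them at a common ratio, put the depth of the other 5 samples at 0.65 to 0.95 of untreated replicate 1. The sum of FPKM ran from 549379.4 to 1045707.3, of which loci under 300 bp held 23.9% to 67.7%, the lowest shares being in replicate 1. Their part in the results was not tested. The deposited confidence bounds were not used.

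Rows were summed by gene name, and 6 names with a failed quantification were left out. Genes with at least 0.5 FPKM in at least 3 samples were fitted as log2(FPKM + 0.1) in limma 3.58.1 (R 4.3.3; lmFit, eBayes with trend), with Benjamini-Hochberg adjustment over all 12997. Fold changes are on this scale and understate those of low genes. For changes of expression and of ChIP-seq signal the paper names a Welch test, without describing one for single genes in the RNA-seq. Here limma was used for 3 samples against 3, where an exact permutation cannot go below 0.1. The numbers were taken to pair samples, since every same-number correlation exceeded 0.1, and a fit with the replicate block stands beside the fit without. Both were also run on simulated data that took their replicate effects from these same samples. As pairing was thus built in, that run cannot decide between the fits. Python 3.11.15, pandas 2.3.3, numpy 2.4.6 and scipy 1.17.1 were used. The 10 genes, lists and tests were chosen with earlier results of these data known. Named are all 10, the listed genes past the threshold in either fit, or the 2 largest changes of a pathway list with none, and for marker lists those past the threshold or near 0. Pdgfra and Dab2 were added after their values were seen, as was Fosl1. All 10 are protein-coding and overlap no other locus in the mm9 tables, whose coordinates were not compared with GRCm38.p6.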

Additional observations from a re-analysis of the deposited data

How the results depend on the processing

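Without the replicate block limma called 3 genes higher and 1 lower, and with it 563 and 787. With the block these counts were 558 and 586 after quantile normalization, 430 and 336 after TPM scaling, 659 and 931 with a pseudocount of 1, and 45 to 785 and 66 to 1078 when 1 replicate number was left out (45 and 66 without replicate 2, 444 and 578 without replicate 3). Without the block they ranged from 0 to 5 and from 0 to 7 when 1 sample was left out. Requiring 1 FPKM in all 6 samples gave 0 and 0, and a pseudocount of 1 gave 0 lower. Of the 10 genes, 0 passed without the block, 4 with the block alone or after quantile normalization, 2 after TPM scaling, 5 with a pseudocount of 1, and 2 to 5 when a replicate number was left out. Of the other pathway genes 0 passed without the block, 9 with it, 5 after quantile normalization, 7 after TPM scaling, 13 with a pseudocount of 1, and 1 to 12 when a number was left out. Fgfr2 changed sign without untreated replicate 1 (-0.03), without tamoxifen replicate 2 (-0.03) and with the block without replicate 3 (-0.04), and with 1 sample left out it reached 0.33. Etv5 did so without untreated replicate 2 (-0.06) and with the block without replicate 2 (-0.0033), and also reached 0.33 with 1 sample left out. The other 8 genes kept their direction in all 22 settings. TPM scaling moved the median log2 fold change of all genes from -0.02 to 0.081. The cause of these differences was not tested. What depth limits is unknown, as FPKM keep no totals.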

Other observations

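A ratio of 2 genes within a sample is not moved by the scaling of its library. The 5 ratios given here were chosen after the values had been seen and were compared by two-sided exact permutation, for which 0.1 is the smallest p that 3 samples against 3 allow.

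Etv4 over Etv5 was 0.479, 0.609 and 0.423 in untreated replicates 1 to 3 and 0.294, 0.274 and 0.201 in tamoxifen replicates 1 to 3. These values did not overlap, the log2 difference was -0.98 and the exact permutation p was 0.1 (0.17 after Benjamini-Hochberg adjustment over the 5 ratios). Fgfr1 over Fgfr2 did not overlap either, with 7.72, 6.06 and 4.96 in untreated and 4.79, 4.8 and 3.21 in tamoxifen. Spry4 over Spry2 went from 0.253, 0.374 and 0.451 to 0.124, 0.238 and 0.25, again without overlap, and both had an exact permutation p of 0.1 and an adjusted one of 0.17. In untreated samples both ratios to Spry1 moved further between replicates than Spry4 over Spry2 did, while in tamoxifen only Spry4 over Spry1 did so. Spry4 over Spry1 was 1.81, 4.1 and 8.5 in untreated and 0.647, 1.55 and 2.1 in tamoxifen. Spry2 over Spry1 was between 7.17 and 18.8 in untreated and between 5.21 and 8.42 in tamoxifen. Both overlapped between groups, with an exact permutation p of 0.2. This permutation does not use the replicate numbers, within which the log2 difference was -1.49, -1.4 and -2.02 for Spry4 over Spry1 and -0.46, -0.75 and -1.16 for Spry2 over Spry1, in numbers 1 to 3. The other 3 ratios were lower in tamoxifen in every number too. In each of the 5 ratios the gene with the lower fitted log2 fold change was put on top. Their shared direction follows from that choice, so that these ratios and p-values describe the genes and do not test them.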
